A study of Mus musculus with 6 samples.

Results

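The p38, JNK and ERK kinase genes were compared between MICT1 KO and control cells of a brown fat line taken through adipocyte differentiation. The set held 9 genes, taken by symbol from the 13283 genes of the expression table: Mapk14, Map2k3, Map2k6, Mapkapk2, Map3k5, Atf2, Mapk8, Mapk9 and Mapk3. All 9 were listed and all 9 passed the filter on low values, among 12507 genes tested. The cells were an immortalized mouse BAT line carrying Cas9, differentiated in culture and given 10 µM forskolin for 6 h on day 6. Forskolin activates adenylyl cyclase and so raises cAMP in both groups, so an unstimulated state was not analysed here. The 3 Scr libraries came from cells with a scrambled sgRNA and the 3 MICT1 KO libraries from CRISPR knockout pools, without a statement of which sgRNA pool gave which library. All 6 derive from one cell line.

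MAP kinases work in tiers. A MAP3K such as ASK1 (Map3k5) phosphorylates a MAP2K, which in turn phosphorylates the MAP kinase on a threonine and a tyrosine of its activation loop. MKK3 (Map2k3) and MKK6 (Map2k6) activate p38α (Mapk14), which phosphorylates the kinase MK2 (Mapkapk2) and the transcription factor ATF2. JNK1 (Mapk8) and JNK2 (Mapk9) also phosphorylate ATF2 and also lie downstream of ASK1, whereas ERK1 (Mapk3) belongs to the growth factor cascade of Ras, Raf and MEK. In brown fat, p38 is activated after β-adrenergic and PKA stimulation and is known for driving Ucp1 and Pgc1α transcription through ATF2. The values below are mRNA levels and not kinase activity, which depends on phosphorylation.

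Among the 9 genes, 4 were lower and 1 was higher in MICT1 KO cells, and 4 did not pass the test. Mapk14, Map2k6, Mapkapk2 and Map3k5 fell, by 23.2%, 27.7%, 9.29% and 21.4% of the Scr mean, and Mapk3 rose by 17.2%. All the genes that fell belong to the p38 branch or are shared by p38 and JNK, as do 6 of the 9 genes of the set. Of the 3 genes that act only in the JNK or ERK cascade, 0 fell and 1 rose, also at an unadjusted p under 0.05. Each comparison used limma-trend on log2(value + 1) with Benjamini-Hochberg adjustment over all genes tested and a threshold of 0.05. Values are read numbers of a gene as the authors estimated them, scaled by a size factor for each library. By the same test 28.3% of all genes tested were lower and 28.5% higher, 56.9% in all, so 5 of 9 lies near that background. Without Scr replicate 2 the counts were 2 lower and 0 higher, and without MICT1 KO replicate 2 they were 2 lower and 2 higher. The median log2 fold change of the 9 genes was -0.056, against -0.0053 for all genes tested.

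The promoters are shown for the genes that fell most, Mapk14, Map2k6 and Map3k5, and for Mapk8, a kinase gene that did not pass. They were picked after the values were known. Each is the 250 bases before a RefSeq transcription start on GRCm38.p6, 5′ to 3′ on the strand of the gene. Capitals mark every match, on either strand, to a cAMP response element (CRE, TGACGTCA), an AP-1 site (TGANTCA) or a GC box (GGGCGG). The windows are chr17:28691092-28691341 (plus strand) for Mapk14, chr11:110398852-110399101 (plus strand) for Map2k6, chr10:19934276-19934525 (plus strand) for Map3k5 and chr14:33447159-33447408 (minus strand) for Mapk8.
Mapk14: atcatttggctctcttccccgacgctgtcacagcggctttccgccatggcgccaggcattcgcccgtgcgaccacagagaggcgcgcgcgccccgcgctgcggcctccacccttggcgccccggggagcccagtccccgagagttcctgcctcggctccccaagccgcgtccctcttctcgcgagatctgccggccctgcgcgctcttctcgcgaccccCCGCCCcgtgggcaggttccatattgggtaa
Map2k6: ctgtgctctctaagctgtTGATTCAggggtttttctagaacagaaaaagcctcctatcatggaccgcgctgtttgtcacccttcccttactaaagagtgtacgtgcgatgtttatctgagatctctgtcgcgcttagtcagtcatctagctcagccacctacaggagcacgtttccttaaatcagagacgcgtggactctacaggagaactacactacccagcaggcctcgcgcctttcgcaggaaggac
Map3k5: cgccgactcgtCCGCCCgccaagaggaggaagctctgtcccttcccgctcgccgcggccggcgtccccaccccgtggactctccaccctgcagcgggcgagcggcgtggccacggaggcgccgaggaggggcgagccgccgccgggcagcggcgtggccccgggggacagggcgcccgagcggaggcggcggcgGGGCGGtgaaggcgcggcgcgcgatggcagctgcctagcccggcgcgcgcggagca
Mapk8: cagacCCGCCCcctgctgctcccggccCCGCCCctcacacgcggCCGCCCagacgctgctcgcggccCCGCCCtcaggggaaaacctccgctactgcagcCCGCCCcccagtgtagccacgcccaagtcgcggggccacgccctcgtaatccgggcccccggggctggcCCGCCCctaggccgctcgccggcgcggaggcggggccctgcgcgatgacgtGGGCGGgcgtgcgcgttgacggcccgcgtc

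A promoter was found for 8 of the 9 genes, all but Mapk3. A CRE was in 0 of these 8 windows, against 1.55% of the 32851 windows of the same length in the RefSeq set. A GC box was in 6 of the 8 (75%), against 32.7% of all windows. These 8 genes had 1 start each, the one nearest the annotated start of the gene, whereas all windows took every start of the set. The windows compared are thus not matched, and the difference was not tested. Map2k6 held the only AP-1 site, where 6.75% of all windows have one, and it and Mapkapk2 were the promoters without a GC box. The promoter of Mapk8 had 7 GC boxes, that of Map3k5 had 2 and that of Mapk14 had 1. Among the promoters not shown, Atf2 held 4, Map2k3 held 3 and Mapk9 held 1. Such matches describe the sequence only, and the absence of one says nothing about a factor.

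Adipocyte marker levels moved with the groups. All 9 adipocyte markers examined, among them Adipoq, Fabp4, Pparg and Plin1, were lower in MICT1 KO libraries. Their median log2 fold change was -3.33. The summed value of the 9 was 121979 to 144909 in Scr against 14447 to 20809 in MICT1 KO libraries. Ucp1, the brown fat marker among the 9, was low in both groups, at 20.8, 24.1 and 30.5 (Scr) against 1.91, 1.05 and 9.33 (MICT1 KO). Its Scr mean was 25.1, where that of Fabp4 was 53343. Of 6 fibroblast and preadipocyte markers 3 were higher (Ly6a, Pdgfrb and Col1a1) and 2 lower (Pdgfra and Dlk1). Their sum was 36472 to 41757 against 49726 to 53500.4. That rise mainly follows Col1a1, with a mean of 17955 in Scr and 30595 in MICT1 KO libraries. The preadipocyte marker Dlk1 fell from a mean of 687 to 63.9. The macrophage genes Cd68 and Csf1r and the muscle gene Acta1 did not pass, at sums of 81.4 to 133 against 101 to 142 for the macrophage pair and 17.3 to 27.7 against 6.32 to 23.8 for Acta1. The other listed markers of these cells (Thy1, Adgre1, Ptprc, Lyz2, Myod1, Myog, Myf5 and Ckm) were not analysed here. How far this shift in markers enters the values of the kinase genes was not tested. In bulk RNA, fewer cells of a type and less RNA per cell cannot be told apart. MICT1 itself was not analysed here. The table holds the equivalent of 15445814 to 17925634 reads per library. Multiplied by the size factor of their library, the values of all 9 genes were whole reads in 6 of 6 libraries within 0.1 read.

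Mapk14, which encodes p38α, spans chr17:28691329-28748406 (GRCm38, GENCODE vM21, plus strand). Its values were 3351, 3286 and 3590.05 (Scr) against 2658, 2567 and 2635 (MICT1 KO). Every MICT1 KO value was below every Scr value, and the 3 MICT1 KO libraries lay close together. The means were 3409 ± 160.1 (SD, n = 3) and 2619.8 ± 47.5 (SD, n = 3). The log2 fold change was -0.38 (95% interval -0.50 to -0.26, standard error (SE) 0.057, adjusted p = 8.24e-06 from limma-trend). Of all fold changes of the genes tested, 21.2% lay at or below that of Mapk14, and the median size of a log2 fold change over all genes was 0.33.

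Map2k6 encodes MKK6 and lies at chr11:110399122-110525522 (plus strand). It was the least expressed of the 9 genes, at 151, 155 and 137 (Scr) against 107, 96.9 and 117 (MICT1 KO). The groups did not overlap. From 148 ± 9.23 (SD, n = 3) it fell to a mean of 107 ± 10.1 (SD, n = 3), at a log2 fold change of -0.47 (95% interval -0.83 to -0.10, SE 0.17, adjusted p = 0.0271 from limma-trend). With so few reads the interval was wide. The adjusted p was 0.0694 without Scr replicate 1 (-0.45), 0.0841 without Scr replicate 2 (-0.43) and 0.0869 without MICT1 KO replicate 2 (-0.40).

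Map2k3, the gene of the related kinase MKK3, is on the same chromosome at chr11:60932033-60952811 (plus strand). The values of Map2k3 were 1627, 1621 and 1562 (Scr) against 1748, 1588 and 1880.3 (MICT1 KO). The second MICT1 KO library lay within the Scr range and the other two above it. The log2 fold change was 0.11 (95% interval -0.028 to 0.26, adjusted p = 0.165 from limma-trend), and 0.18 without MICT1 KO replicate 2 (adjusted p = 0.0376). The difference between Map2k3 and Map2k6 was not tested.

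Mapkapk2 encodes MK2, the kinase through which p38 acts on mRNA stability and small heat shock proteins (chr1:131053700-131097826, minus strand). It had 3068, 3228 and 3438 (Scr) against 3040.25, 2961 and 2829 (MICT1 KO). The groups did not overlap, but the highest MICT1 KO value was just under the lowest Scr value. The log2 fold change was -0.14 (95% interval -0.26 to -0.017, SE 0.059, adjusted p = 0.0487 from limma-trend). This call was lost in 6 of 14 alternatives. Its adjusted p was 0.0504 with library size scaling, 0.0631 with the replicate block, 0.102 without Scr replicate 2, 0.206 without Scr replicate 3, 0.0735 without MICT1 KO replicate 2 and 0.181 without MICT1 KO replicate 3, where the log2 fold change ranged from -0.14 to -0.097.

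Map3k5 and Atf2 serve both p38 and JNK. Map3k5 (chr10:19934472-20142753, plus strand), the gene of the stress-activated kinase ASK1, had 618, 599.8 and 700.1 (Scr) against 443, 565 and 499 (MICT1 KO). The groups did not overlap, although both were scattered. The Scr mean was 639 ± 53.4 (SD, n = 3) and the MICT1 KO mean 502 ± 60.8 (SD, n = 3), a log2 fold change of -0.35 (95% interval -0.56 to -0.14, SE 0.10, adjusted p = 0.00554 from limma-trend). Atf2 (chr2:73816509-73892639, minus strand), the gene of the factor that p38 and JNK phosphorylate, had 1089.98, 1028 and 1144 (Scr) against 1139, 1215 and 1156 (MICT1 KO). One MICT1 KO library fell inside the Scr range. Its log2 fold change was 0.11 (95% interval -0.040 to 0.25, adjusted p = 0.209 from limma-trend). The annotated exons of Atf2 share 167 bases with a small RNA gene on the same strand, Gm27421, which was not analysed here.

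**Figure D1:**
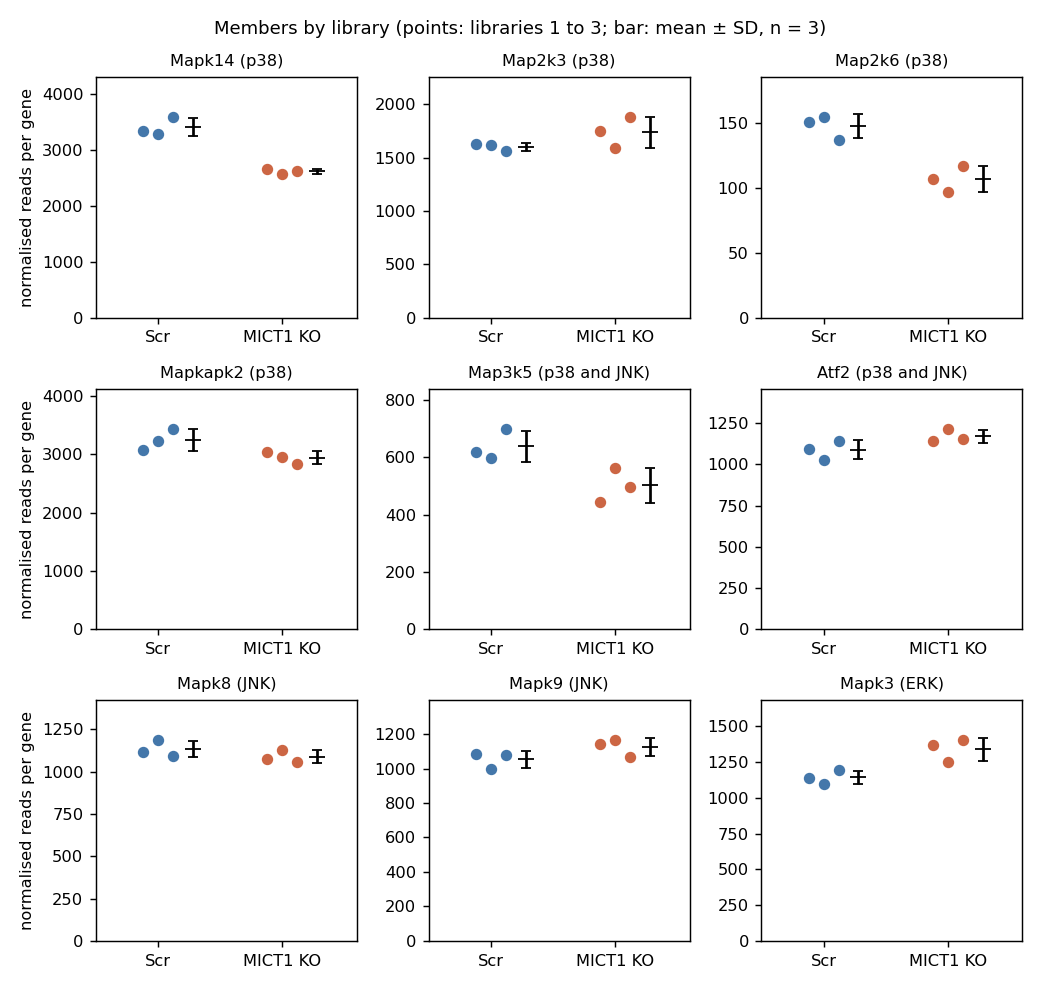
Normalised reads per gene (y axis, from 0) in each of the 3 Scr (blue) and 3 MICT1 KO (orange) libraries for the 9 genes, with the mean ± SD beside them in black. The groups are apart for Mapk14, Map2k6, Mapkapk2 and Map3k5, which are lower in MICT1 KO, and for Mapk3, which is higher, and they overlap for Map2k3, Atf2, Mapk8 and Mapk9.

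Neither JNK gene passed the test. Mapk8, encoding JNK1 (chr14:33377898-33447158, minus strand), had 1119, 1186 and 1094 (Scr) against 1076, 1131 and 1060.4 (MICT1 KO). The log2 fold change was -0.056 (95% interval -0.20 to 0.089, adjusted p = 0.511 from limma-trend). Mapk9, encoding JNK2 (chr11:49846751-49886421, plus strand), had 1085, 996 and 1079 (Scr) against 1142, 1163 and 1066 (MICT1 KO). Its log2 fold change was 0.094 (95% interval -0.056 to 0.24, adjusted p = 0.279 from limma-trend). For both the groups overlapped, and the intervals leave room for small changes in either direction.

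Mapk3, the gene of ERK1 (chr7:126759601-126765819, plus strand), was the one gene of the set that rose. Its values were 1140.4, 1098 and 1192 (Scr) against 1371, 1247 and 1401 (MICT1 KO), with no overlap. From 1143 ± 47.1 (SD, n = 3) the mean rose to 1339.95 ± 81.5 (SD, n = 3), with a log2 fold change of 0.23 (95% interval 0.081 to 0.37, SE 0.070, adjusted p = 0.00901 from limma-trend). Without Scr replicate 2 the adjusted p was 0.0503, at a log2 fold change of 0.20.

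Groups without overlap were found for 5 of the 9 genes, with the MICT1 KO libraries below in 4 and above in 1. Over all genes tested the shares were 31.2% and 30.9%, 62.0% in all. No member reached a 1.8-fold change with an unadjusted p under 0.05 (limma-trend), whereas 7.39% of all genes tested did so as lower and 10.1% as higher. This is only part of the criterion in the study's methods. They also ask for a maximum of 4 RPKM, not applied here, and took their p-values from Partek software. The median size of a log2 fold change over all genes tested was 0.33. Mapk14 (-0.38), Map2k6 (-0.47) and Map3k5 (-0.35) were above it in size, and the other members below it.

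**Figure D2:**
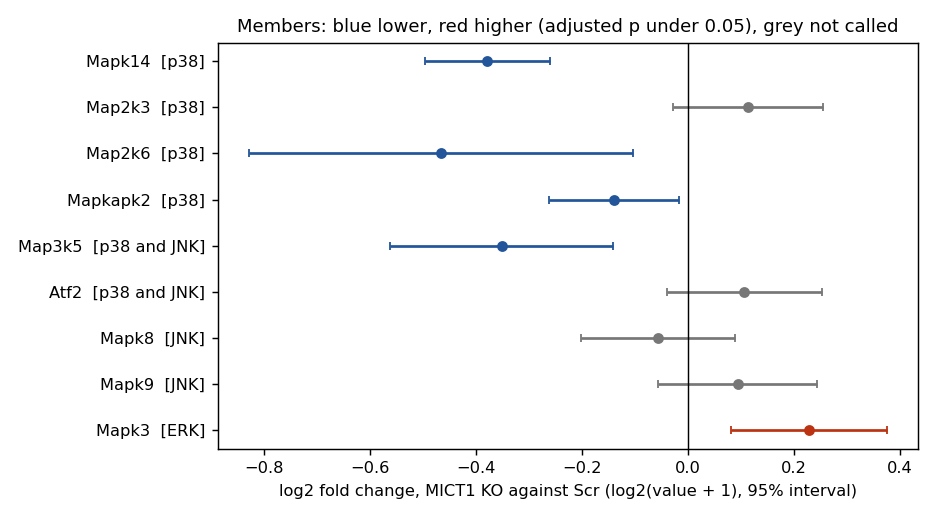
Log2 fold change of MICT1 KO against Scr on the log2(value + 1) scale (x axis) for each of the 9 genes, with 95% intervals from limma-trend over 3 and 3 libraries; brackets give the branch. Mapk14, Map2k6, Mapkapk2 and Map3k5 lie left of 0, Mapk3 right of 0, and the intervals of the other 4 genes cross 0.

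To set p38 against JNK and ERK within each library, where scaling between libraries cancels, the log2 ratio of Mapk14 to each of the other MAP kinase genes of the set was taken. Against Mapk8 the log2 ratio was 1.58, 1.47 and 1.71 (Scr) against 1.30, 1.18 and 1.31 (MICT1 KO), lower by a difference of -0.32. Against Mapk9 it was 1.63, 1.72 and 1.73 (Scr) against 1.22, 1.14 and 1.31 (MICT1 KO), a difference of -0.47. Against Mapk3 it was 1.55, 1.58 and 1.59 (Scr) against 0.95, 1.04 and 0.91 (MICT1 KO), a difference of -0.61. In all 3 ratios every MICT1 KO library was below every Scr library. The exact permutation test (two-sided) gave p = 0.1 for each of the 3, the smallest p that 3 against 3 libraries allow, so none can pass 0.05. Mapk14 thus stood lower relative to both JNK genes and to Mapk3 in these libraries, most so relative to Mapk3, which rose. When any 1 library was dropped, the differences stayed between -0.38 and -0.26 against Mapk8, -0.51 and -0.43 against Mapk9, and -0.64 and -0.58 against Mapk3.

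Among the 9 genes, log2 fold changes had a median of -0.26 for the 4 p38 genes (3 lower and 0 higher), -0.12 for the pair shared with JNK (1 lower), 0.019 for the JNK pair (0 lower and 0 higher by limma-trend, also at an unadjusted p under 0.05) and 0.23 for the single ERK gene. With the shared pair counted in, the p38 branch had 4 lower of 6 and a median of -0.25, where 28.3% of all genes tested were lower. The shared pair counts equally for JNK, where it would bring 1 lower gene, Map3k5. Without Scr replicate 2 or without MICT1 KO replicate 2, 2 of the 6 p38 and shared genes were lower, Mapk14 and Map3k5. The wider lists described further on did not follow this order: of 5 other p38 genes 0 were lower (also 0 at an unadjusted p under 0.05) and 1 was higher by limma-trend, with a median of -0.062, against -0.15 for 17 other ERK genes. These branches are of 1 to 4 genes, and the difference between branches was not tested beyond the ratios above.

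Levels between genes were compared per exon length, as reads per kilobase of annotated exon scaled to the total of the library (RPKM). In Scr libraries the order was Mapkapk2 (65.2 ± 3.37 RPKM, SD, n = 3), Mapk14 (47.6 ± 2.43), Mapk3 (31.0 ± 1.52), Map2k3 (29.6 ± 0.869), Mapk9 (9.49 ± 0.580), Atf2 (8.12 ± 0.501), Map3k5 (6.42 ± 0.553), Mapk8 (6.05 ± 0.202) and Map2k6 (2.62 ± 0.164). The neighbours Mapk3 and Map2k3 overlapped between libraries, as did Map3k5 and Mapk8. In MICT1 KO libraries Mapk14 (36.7 ± 0.560 RPKM, SD, n = 3) no longer stood apart from Mapk3 (36.4 ± 2.18), and the values of Mapk3 overlapped those of Map2k3 (32.1 ± 2.74). Mapkapk2 remained first in that order (59.3 ± 1.84 RPKM) and Map2k6 last (1.90 ± 0.182 RPKM). Exon lengths cover all annotated transcripts, from 2.26 kb for Mapk3 to 11.4 kb for Mapk8, so a gene with long rarely used exons is understated.

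Within the p38 family, taken here as Mapk14, Mapk11 and Mapk13, Mapk14 supplied nearly all of the mRNA. Its share of the summed RPKM of Mapk14, Mapk11 and Mapk13 was 98.4% ± 0.196 (SD, n = 3) among Scr and 96.0% ± 0.384 (SD, n = 3) among MICT1 KO libraries. Mapk11, encoding p38β, was low, at values of 12.9, 20.4 and 14.2 (Scr) against 68.6, 40.04 and 63.2 (MICT1 KO). It rose with a log2 fold change of 1.78 (SE 0.35, adjusted p = 0.000217 from limma-trend), to 3.17% ± 0.784 (SD, n = 3) of the family. The family sum was still lower, at 38.2 ± 0.734 RPKM in MICT1 KO against 48.4 ± 2.42 in Scr libraries (SD, n = 3). Mapk13 (p38δ) had values of 20.8, 21.3 and 25.4 (Scr) against 7.63, 24.2 and 15.5 (MICT1 KO), with overlap (adjusted p = 0.267 from limma-trend). Mapk12, another p38 gene, was not analysed here, so these shares leave it out.

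The JNK genes shared their mRNA more evenly. Mapk9 held 61.0% ± 2.11 (SD, n = 3) of the summed RPKM of Mapk8 and Mapk9 among Scr and 63.5% ± 0.632 (SD, n = 3) among MICT1 KO libraries, and the family sum was 15.5 ± 0.467 and 15.98 ± 0.618 RPKM.

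**Figure D3:**
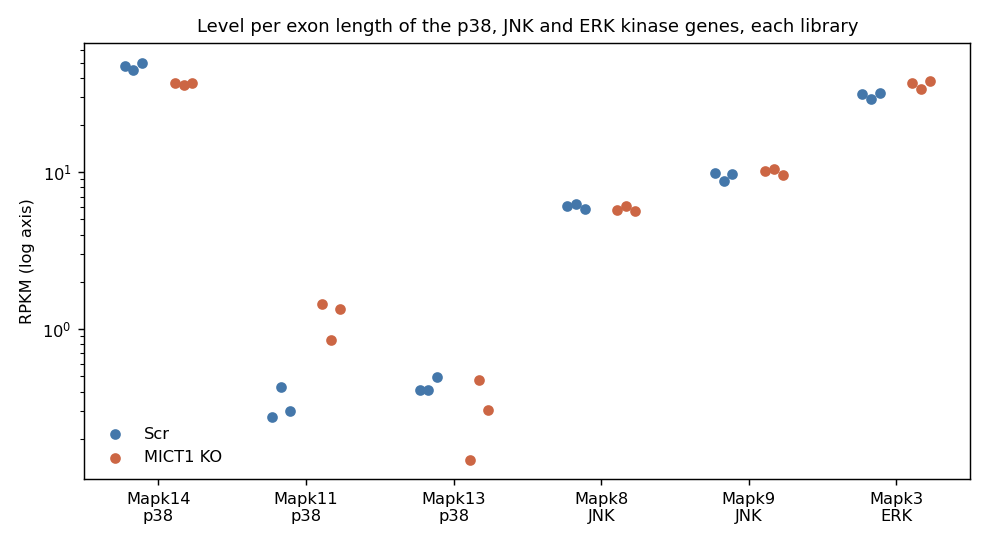
RPKM (y axis, log scale) of the p38, JNK and ERK kinase genes in each of the 3 Scr (blue) and 3 MICT1 KO (orange) libraries. Mapk14 is the highest of these genes in Scr and drops to the level of Mapk3 in MICT1 KO, while Mapk11 and Mapk13 stay at or below 1.45 RPKM in all 6 libraries.

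Around these 9 genes, 50 other genes of the cascades were listed and 47 were tested. Among the 47, 17 were lower, 11 higher and 19 did not pass (limma-trend), beside the background of 28.3% lower and 28.5% higher, with a median log2 fold change of -0.12. The largest changes of the pathway were in this wider list. Map3k1, the gene of MEKK1, a MAP3K known for activating JNK, had 1865, 1855 and 1991 (Scr) against 534, 587 and 565 (MICT1 KO), a log2 fold change of -1.76 (SE 0.072, adjusted p = 1.68e-14 from limma-trend). Ksr1, the gene of a scaffold that joins Raf, MEK and ERK, had 2663, 2692 and 2803 (Scr) against 977, 1029 and 1159 (MICT1 KO), a log2 fold change of -1.37 (SE 0.069, adjusted p = 4.68e-13). For both, the MICT1 KO libraries were far below the Scr libraries. These genes, with Mapk11 and Rps6ka2, were the 4 of the 47 with at least a 1.8-fold change and an unadjusted p under 0.05 (limma-trend). Of them 2 were lower and 2 higher, beside 7.39% lower and 10.1% higher over all genes tested.

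Upstream of p38 and JNK, 3 of 8 genes fell and 2 rose, for a median log2 fold change of -0.083. Over all genes tested 28.3% were lower and 28.5% higher. Map2k4, the gene of MKK4, which activates JNK and can activate p38, had 2347, 2412 and 2821 (Scr) against 1676, 1737 and 1731 (MICT1 KO), a log2 fold change of -0.55 (SE 0.068, adjusted p = 6.21e-07 from limma-trend). It thus fell along with Map2k6 while Map2k3 did not pass, and the share of Map2k3 in the summed RPKM of these 3 kinase genes was 45.4% ± 2.73 (SD, n = 3) among Scr and 56.8% ± 2.04 (SD, n = 3) among MICT1 KO libraries. Taok3, a MAP3K gene, rose with a log2 fold change of 0.36 (adjusted p = 0.00508 from limma-trend). In the JNK list 2 of 8 tested genes were lower and 2 higher, beside the same shares over all genes tested. Map2k7, encoding the JNK kinase MKK7, fell by 0.17 on the log2 scale (adjusted p = 0.0151 from limma-trend), and without Scr replicate 3 it fell by 0.14 (adjusted p = 0.067). Map3k12, the gene of the JNK-activating kinase DLK, rose, from 340, 320.2 and 341 in Scr to 599.5, 637 and 550.1 in MICT1 KO libraries (log2 fold change 0.83, adjusted p = 3.97e-07). Mapk10 and Mapk8ip2 were not analysed here.

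The ERK list had 8 falling and 5 rising of 17 genes, beside 28.3% lower and 28.5% higher over all genes tested. Its median log2 fold change was -0.15. The MEK genes moved in opposite directions. Map2k1 fell by 0.23 on the log2 scale (adjusted p = 0.00122 from limma-trend), and Map2k2 had a log2 fold change of 0.15 (adjusted p = 0.049 from limma-trend), with overlapping groups. The call of Map2k2 was lost with the replicate block (adjusted p = 0.0602) and in 4 of the fits that left out a library, and its adjusted p ranged from 0.0199 to 0.196 over all alternatives. Rps6ka2, the gene of the ERK-activated kinase RSK3, rose most, from 151, 136 and 115 in Scr to 336, 316 and 335 in MICT1 KO libraries (log2 fold change 1.30, SE 0.14, adjusted p = 1.26e-07 from limma-trend).

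Below the MAP kinases, results were mixed too. Of the p38 substrates related to MK2, Mapkapk3 had a log2 fold change of -0.021 (95% interval -0.22 to 0.18) and Mapkapk5 one of -0.062 (95% interval -0.22 to 0.096), and neither passed. Of 4 kinases that both ERK and p38 activate, Mknk2 fell and Rps6ka4 rose. Mknk2, the gene of the eIF4E kinase MNK2, had 8076, 8382 and 8365 (Scr) against 5273, 5407 and 5328 (MICT1 KO), a log2 fold change of -0.63 (SE 0.050, adjusted p = 9.27e-10 from limma-trend). Rps6ka4, encoding the chromatin kinase MSK2, had 1302, 1302 and 1259.8 (Scr) against 2067, 2026 and 2225 (MICT1 KO), a log2 fold change of 0.71 (adjusted p = 5.29e-09). Among 5 transcription factor genes 3 were lower and 0 higher by limma-trend, also 0 at an unadjusted p under 0.05, beside 28.3% and 28.5% of all genes tested. Atf7, the close relative of Atf2, fell from 2803, 2887 and 2953 in Scr to 1993, 1953 and 1965 in MICT1 KO libraries (-0.55 on the log2 scale, limma-trend adjusted p = 4.90e-08), whereas Atf2 itself did not pass.

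**Figure D4:**
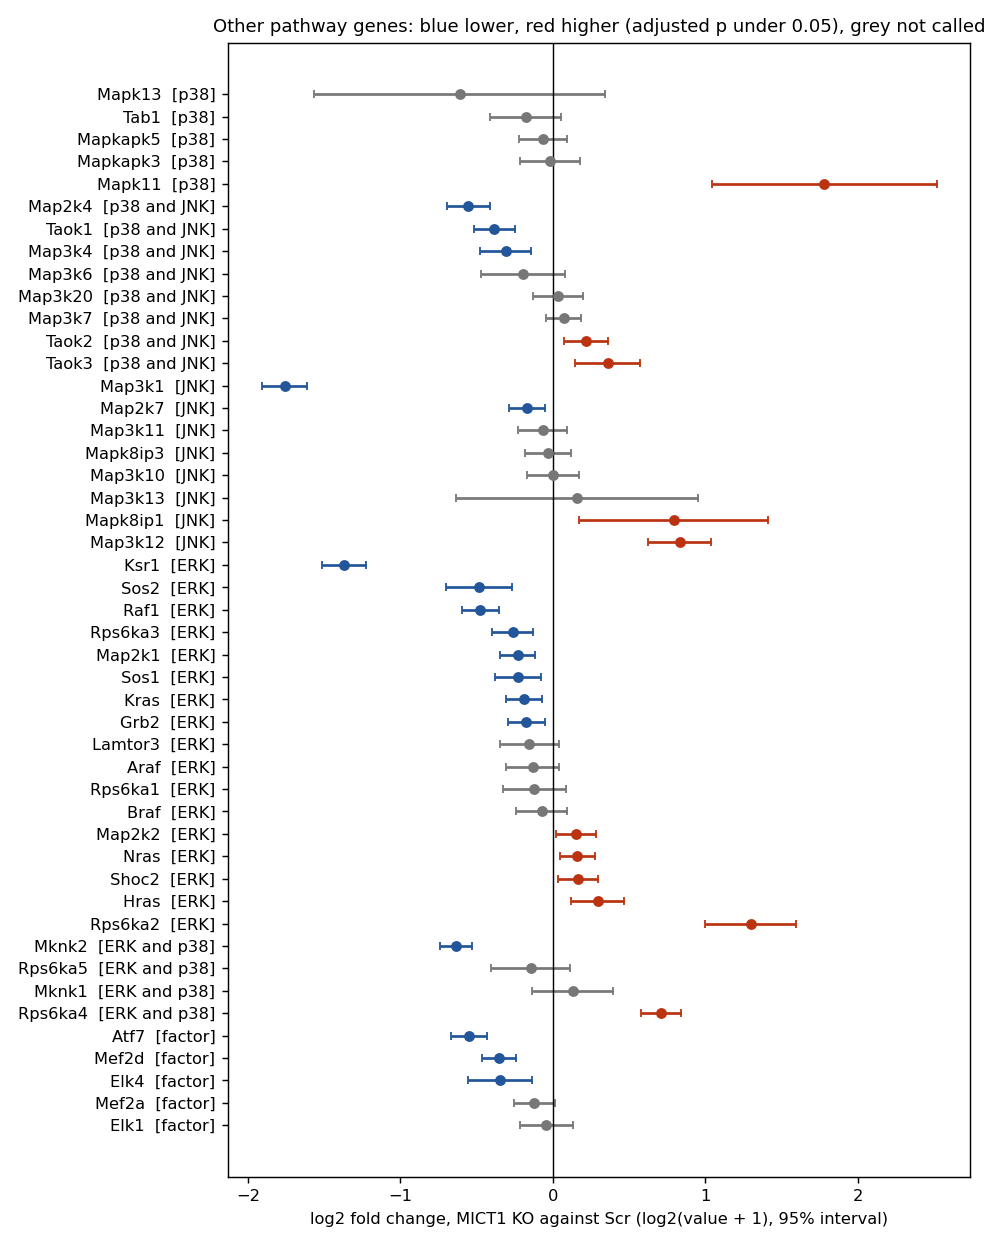
Log2 fold change of MICT1 KO against Scr (x axis, log2(value + 1) scale, 95% intervals from limma-trend, 3 and 3 libraries) for the 47 tested genes of the wider cascades, grouped by branch and ordered by fold change within a branch. Map3k1 and Ksr1 lie furthest to the left and Mapk11 and Rps6ka2 furthest to the right, and each branch of kinases has genes that were not called.

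The genes whose profile over the 6 libraries was most like that of Mapk14 were Timeless, Nabp2 and Mcmbp. Likeness was the root mean square difference of the log2(value + 1) values after the mean of each gene was subtracted, at 0.019, 0.021 and 0.024, against a median of 0.29 over the other genes tested. Their log2 fold changes were -0.36, -0.35 and -0.37. With libraries in only 2 groups this measure mainly finds genes with the same difference between the groups.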

How the data were processed

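Gene expression was measured by RNA-seq in 3 Scr and 3 MICT1 KO libraries, grouped and numbered by the sample labels. The authors aligned reads with Partek software to NCBI38/mm10, and the submitters' processing notes also name STAR and DESeq2. The counting model and annotation are not given in the sources used here. The authors deposited a normalized signal per gene, above 0 in every library of every listed gene. Read from the values, it is an estimated read number divided by a size factor per library (0.949 to 1.08). Between 92.1% and 93.3% of values under 20 were whole reads within 0.1.

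No count test was run because these are not counts. Log2(value + 1) was fitted with limma-trend (limma 3.58.1, R 4.3.3) for genes that reached 10 in 3 or more libraries, with Benjamini-Hochberg adjustment across them. RPKM used GENCODE vM21 exon lengths (98.8% of genes). Functions were tested on simulated data. The members, gene lists, motifs and tests were chosen with earlier results of these data known. The genes named are the 9 members, chosen paralogs of the MAP kinase, MAP2K and MK2 genes, the largest called rise and fall of each list and the 3 genes nearest to Mapk14. One gene of the wider lists is not reported here and was left out of their counts. Alternatives were library size and TMM scaling, limma-voom, no filter, a maximum of 4 RPKM, pseudocounts of 0.5 and 5, a replicate block and each library left out. The paper describes its replicates in general as biological. The labels do not say that the libraries of a group came from separate cultures. The p-values thus measure the spread between these libraries, which may be technical.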

Additional observations from a re-analysis of the deposited data

How the results depend on the processing

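Over 14 alternatives Mapk14 and Map3k5 kept their direction and their call, and no member changed sign. The call of Mapkapk2 was lost with library size scaling (-0.14 on the log2 scale, limma-trend adjusted p = 0.0504). With the replicate block it was also lost (-0.14, adjusted p = 0.0631), while the other members kept their calls. Same-numbered libraries showed no clear pairing: correlations of their deviations were -0.024, -0.015 and 0.064, and 2 of 6 libraries correlated best with their own number. So few libraries cannot settle whether the numbers pair them. The block moved the genes called over the table from 3544 to 3512 lower and from 3569 to 3543 higher. With 1 library left out, the log2 fold change ranged from -0.53 to -0.40 for Map2k6, from -0.18 to -0.097 for Mapkapk2, from 0.19 to 0.28 for Mapk3 and from 0.055 to 0.18 for Map2k3. Members called lower then numbered 2 to 4 and members called higher 0 to 2, with 2 lower and 0 higher without Scr replicate 2 and 2 lower and 2 higher without MICT1 KO replicate 2. Wider pathway genes called higher numbered 7 to 9, with 7 without MICT1 KO replicate 3. A filter at 4 RPKM also gave 7, with fewer genes tested: of the 11, it leaves out Mapk11, Taok3, Mapk8ip1 and Rps6ka2, and of the members Map2k6 (Mapk8ip1 is named after its values were seen). The cause of the other moves was not tested. Few reads limit Map2k6, Mapk11 and Mapk13.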
